A study of Danio rerio with 21 samples.

Results

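The genes rorc, il22 and il17a/f1 stand for type 3 immunity, and their rows were taken by symbol from the feature list of all 21 libraries, 3 of 27758 features. The feature rorc has the identifier ENSDARG00000087195, il22 has ENSDARG00000045673 and il17a/f1 has ENSDARG00000043933. RefSeq lists rorc as a synonym of rorca, which is a feature of its own here, so all rorc values refer to the feature with that symbol. Unique molecular identifiers (UMIs, each marking 1 captured transcript) were counted in 185887 kept cells. In all, rorc gave 23971 UMIs in 5043 cells, il22 gave 1516 UMIs in 512 cells and il17a/f1 gave 425 UMIs in 168 cells.

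Type 3 lymphocytes guard barrier tissues such as the gut, and they include T helper 17 cells, some gamma-delta T cells and innate lymphoid cells (ILCs) that carry no antigen receptor. In mammals interleukin 23 sustains these cells through its receptor. Interleukin 22 acts on epithelium and promotes its repair and its antimicrobial defence, whereas interleukin 17A and 17F call in neutrophils. In zebrafish, il22 transcripts have been found in gut lymphocytes, and il17a/f1 is 1 of several genes related to the mammalian IL17A and IL17F pair.

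All cells were mCherry-positive cells sorted from zebrafish whose blood stem and progenitor cells (HSPCs) had received a heritable mCherry label. The label was given at 1 day post fertilization (dpf; early), 2 dpf (mid) or 3 dpf (late). Whole larvae of each label were sampled on the day after the label and again at 6 and 10 dpf, giving 9 libraries whose genotype beyond the label is not given in the labels. Crispants, mosaic mutants made by injection of CRISPR reagents, were early-labelled, carried guides to the pigmentation gene slc24a5 as controls or to the recombinase gene rag1, were left untreated or given 25 µM R848 at 6 dpf, and were sampled at 8 dpf, giving 4 libraries. R848, or resiquimod, is an agonist of Toll-like receptors. Adults were 4 months old and had the early or the late label, and kidney marrow, intestine, thymus and the tessellated lymphoid network (TLN) were each sampled, giving 8 libraries. The driver of the label is not given in the sources used here, and every group was 1 library.

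Library totals ran from 8303823 to 150042529 UMIs. Clusters named by marker genes as T-lineage cells, as natural killer or innate lymphoid cells (NK/ILC), or as a mixture of these, held 24290 cells and are called T and NK/ILC cells here. They made up 65.4% and 75.3% of kept cells in early- and late-labelled intestine, 58.9% and 53.5% in thymus, 4.93% and 3.15% in kidney marrow and 1.37% and 1.03% in TLN. Within them the T-cell receptor constant region TCRaC had a UMI in at most 16.7% of cells of any library, so T cells and ILCs were not told apart. The thymus label sat uneasily with rag1, which marks developing thymocytes. It gave 130 UMIs in the early and 16 in the late thymus library, of which 21 and 0 lay in T and NK/ILC cells. Most early rag1 UMIs thus lay outside the clusters named T and NK/ILC. The gene ccr9a, also a marker that named clusters, stood higher in T and NK/ILC cells of thymus than of the other adult tissues. It had 5701 and 4433 CPM (defined below) in early and late thymus and 2671 and 2701 CPM in TLN. Intestine had 1079 and 907 CPM and kidney marrow 639 and 553 CPM. The tissue label was taken as given and was not tested. The TLN libraries were 98.1% and 98.8% erythroid. Larval libraries of the late label also have a processing software version of their own, and the effects of the version and of the label cannot be told apart.

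Pooled over all libraries, most UMIs of the 3 genes lay in T and NK/ILC cells. T and NK/ILC cells held 92.7% of all rorc UMIs, 84.2% of il22 UMIs and 96.2% of il17a/f1 UMIs. Single libraries could stand far lower. For rorc, T and NK/ILC cells held 0 of 21 UMIs with the early label at 2 dpf and 2 of 25 with the mid label at 3 dpf. With the late label they held 21 of 69 at 4 dpf, 14 of 34 at 6 dpf and 27 of 113 in adult kidney marrow. Outside T and NK/ILC cells, il22 was found in myeloid clusters of kidney marrow. Early kidney marrow had 28 il22 UMIs in 22 macrophage-like cells, 8 in 8 neutrophil-like cells and 20 in 10 cells of unnamed clusters. Late kidney marrow had 26 in 22 macrophage-like cells and 41 in 39 neutrophil-like cells, against 2 in T and NK/ILC cells. The richest kidney marrow cell held 11 il22 UMIs in the early and 2 in the late library, against 36 in early intestine.

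Levels are given below as CPM, the UMIs of a gene scaled to the total UMIs of the T and NK/ILC cells of a library, with exact 95% Poisson intervals where a comparison rests on them. Intervals cover counting error only, and UMIs of 1 cell are not independent. A p-value comes from edgeR's quasi-likelihood fit across all genes with Benjamini-Hochberg adjustment, in which tissues, ages or genotypes stand in for replicates. It therefore rests on the spread between libraries that the terms of the fit leave unexplained, and not on the spread between animals. The fit also borrows this spread from other genes, and with 1 residual degree of freedom most of the crispant spread is borrowed.

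**Figure D1:**
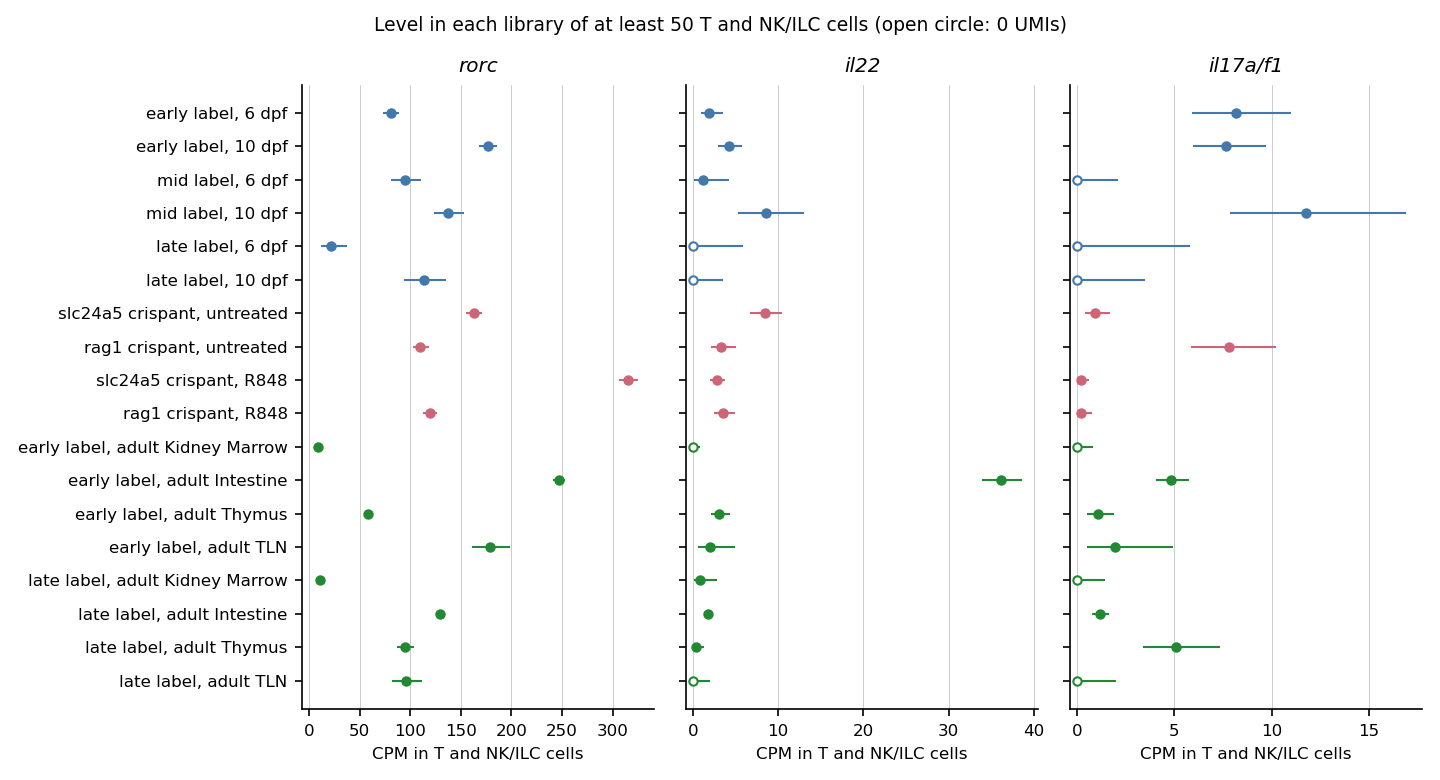
Level of rorc, il22 and il17a/f1 in T and NK/ILC cells of each library with at least 50 such cells, as CPM on linear axes that differ between genes. Points are single libraries (open at 0 UMIs; blue larval, red crispant, green adult) and bars are exact 95% Poisson intervals. The slc24a5 crispants with R848 stand highest for rorc at 316 CPM, and early-labelled adult intestine stands highest for il22 at 36.2 CPM.

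Across the 18 libraries with at least 50 T and NK/ILC cells, rorc was found in every one. It ran from 8.48 CPM in early kidney marrow to 316 CPM in slc24a5 crispants with R848. The order of levels had few clear steps: the intervals of 12 of the 17 neighbouring pairs overlapped for rorc, as did 15 of 17 for il22 and 17 of 17 for il17a/f1. For rorc the clear steps lay below slc24a5 crispants with R848, below early intestine, below untreated slc24a5 crispants, below early larvae at 6 dpf and below early thymus. For il22 they lay below early intestine and below untreated slc24a5 crispants, so early intestine stood alone at the top. For il17a/f1 the highest level, 11.8 CPM (7.88 to 16.9) in mid-labelled larvae at 10 dpf, was 29 UMIs in 6 cells.

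The first comparison asks where in the adult these genes are used. Against the mean of the other 3 tissues, intestinal T and NK/ILC cells carried more rorc and more il22. The rorc gap was widest to kidney marrow and much narrower to TLN, and the il22 gap rested on the early-labelled library. The transcription factor gene rorc stood at 247 CPM (241 to 253; 6420 UMIs) in early and 130 CPM (126 to 134; 3429 UMIs) in late intestine. It stood at 179 CPM (161 to 198) and 96.1 CPM (82.4 to 111) in TLN, at 58.4 CPM (53.8 to 63.2) and 95.1 CPM (87.1 to 104) in thymus, and at 8.48 and 10.5 CPM in kidney marrow. Late intestine thus lay below early TLN, and the groups overlapped. In the fit, rorc was higher in intestine by 1.99 ± 0.35 on the log2 scale (SE; adjusted p = 0.00275), in a comparison where 36.6% of genes were called.

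The cytokine gene il22 stood at 36.2 CPM (34 to 39; 940 UMIs in 183 of 5069 cells) in early intestine and at 1.7 CPM (1.24 to 2.28; 45 UMIs in 22 of 4527 cells) in late intestine. Early thymus had 3.1 CPM (32 UMIs), late thymus 0.364 CPM (2 UMIs), early TLN 1.94 CPM (4 UMIs) and late kidney marrow 0.774 CPM (2 UMIs), while early kidney marrow and late TLN had none. Only early intestine stood apart, and late intestine lay within the range of the other tissues. The fitted difference of il22 was 4.53 ± 0.68 (log2; edgeR adjusted p = 0.00123). It was 2.08 (adjusted p = 0.351) without early intestine, where rorc was 1.21 (adjusted p = 0.0677).

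The gene il17a/f1, of the interleukin 17A and 17F group, was sparse. It had 126 UMIs in 55 cells of early intestine (4.85 CPM, 4.04 to 5.77) and 31 UMIs in 22 cells of late intestine (1.17 CPM, 0.798 to 1.67). Early and late thymus had 11 UMIs (1.07 CPM) and 28 UMIs (5.09 CPM, 3.38 to 7.36), early TLN had 4, and kidney marrow and late TLN had none. Late thymus reached the level of early intestine, and in T and NK/ILC cells the fitted difference of 3.11 ± 1.5 (log2) did not pass (edgeR adjusted p = 0.138). It passed without late intestine, at 4.54 (adjusted p = 0.0410).

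Over all kept cells, where the number of lymphocytes also counts, all 3 genes were higher in intestine. The fitted differences were 3.85 ± 0.39 for rorc (adjusted p = 0.000527), 3.91 ± 0.89 for il22 (adjusted p = 0.0123) and 4.43 ± 1.03 for il17a/f1 (adjusted p = 0.0175), on the log2 scale by edgeR, among 39.4% of genes called. With rorc at 158 and 92.1 CPM in intestine, thymus followed at 36.4 and 52.3 CPM, TLN at 7.02 and 5.11 CPM and kidney marrow at 0.553 and 0.930 CPM. Every intestine library lay above every other library for rorc. Without early intestine, il22 was at 1.77 (adjusted p = 0.314) and il17a/f1 at 2.77 (adjusted p = 0.145), and without early thymus il22 was 4.17 (adjusted p = 0.0510).

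Shares of rorc-positive cells were read beside depth and background. A rorc UMI was found in 15.5% of early and 10.9% of late intestinal T and NK/ILC cells, whose median depths were 4464 and 4730 UMIs, and in 9.21% and 5.62% after each cell was thinned to 1000 UMIs. Erythroid cells, which should lack the gene, had a rorc UMI in 1 of 78 cells of early intestine (median depth 868.5) and in 0 of 4 of late intestine. In TLN, with many more erythroid cells, that share was 0.0716% and 0.102%. With so few erythroid cells the background within the intestine, of the late library above all, was hardly measured.

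The label comparison asks whether HSPCs marked at 1 dpf or at 3 dpf gave rise to different adult cells. In the intestine the early label stood above the late label for all 3 genes. The ratio of early to late CPM in T and NK/ILC cells was 1.9 for rorc (1.83 to 1.98), 21.2 for il22 (15.7 to 29.3) and 4.13 for il17a/f1 (2.77 to 6.33). In thymus rorc and il17a/f1 stood the other way, at ratios of 0.614 (0.545 to 0.691) and 0.210 (0.0941 to 0.434), while il22 stood at 8.53 (2.18 to 73.5) on 32 UMIs against 2. In TLN rorc stood at 1.86 (1.55 to 2.25), and in kidney marrow at 0.811 (0.482 to 1.38), an interval that holds 1. The TLN interval is likely too narrow, since 10 cells held 50.4% of early and 64.1% of late rorc UMIs over all TLN cells.

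Across the 4 tissues no member that passed the filter on low counts was called for label by edgeR. In T and NK/ILC cells rorc differed by 0.44 ± 0.35 (log2; adjusted p = 0.643), among 0.419% of genes called (0.218% higher and 0.2% lower). There, il22 and il17a/f1 were below the filter and so not tested. Without the filter il22 stood at 4.30 ± 0.51 (adjusted p = 3.64e-14) and il17a/f1 at 0.76 ± 0.61 (adjusted p = 0.916). That fit also shares its spread over genes of low counts, so its adjusted p is not comparable with that of a filtered fit. With the filter, il22 passed it when kidney marrow of either label or late TLN was left out. It stood at 4.65 (adjusted p = 0.00602) without early and 4.62 (adjusted p = 0.00703) without late kidney marrow. Without late TLN it was 4.24 (adjusted p = 0.121). The filter then asks for fewer libraries, and the highest adult levels of il22 were all early-labelled (intestine 36.2, thymus 3.1 and TLN 1.94 CPM). So il22 entered these fits only through the group where it is high, and their adjusted p values are no support for a label difference. By UMIs, il22 was well counted in intestine only, at 940 with the early against 45 with the late label. Thymus had 32 against 2, TLN 4 against 0 with overlapping intervals, and kidney marrow 0 against 2. Over all cells, where 0.0595% of genes were called (0.0357% higher and 0.0238% lower), the fitted differences were 0.21 ± 0.39 for rorc (adjusted p = 0.835), 2.46 ± 1.09 for il22 (adjusted p = 0.377) and 0.45 ± 1.09 for il17a/f1 (adjusted p = 0.880). The marker lck, a kinase of T cells, had a UMI in a lower share of early than of late intestinal T and NK/ILC cells, 28.9% against 55.7%, and its part in the label difference was not tested.

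**Figure D2:**
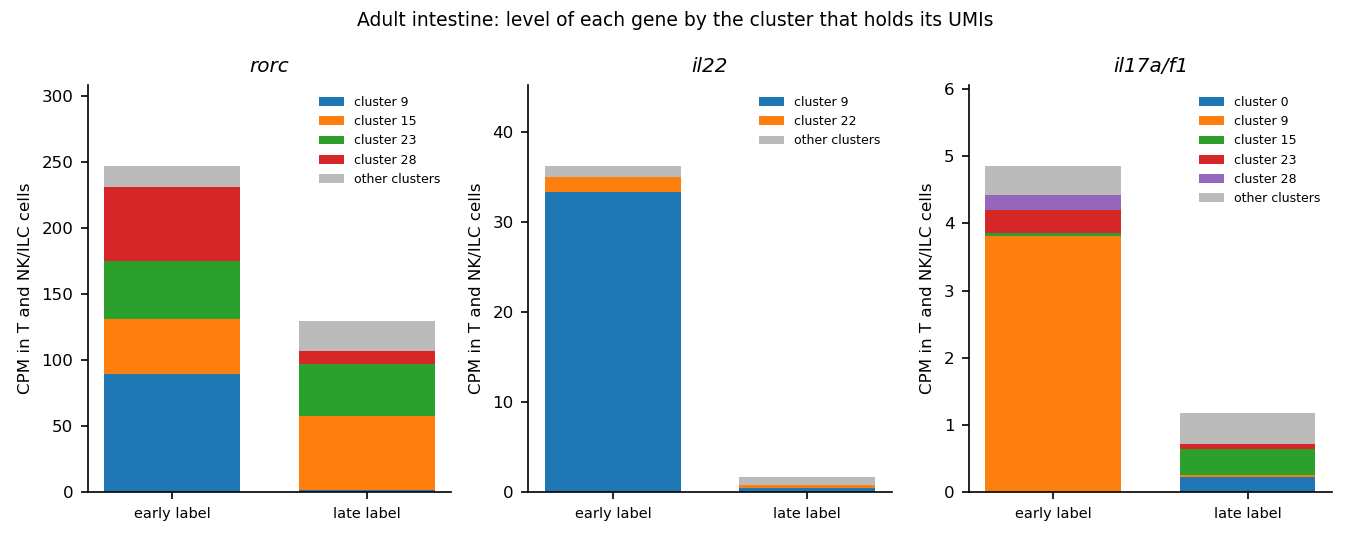
Contribution of each cluster of T and NK/ILC cells to the level of rorc, il22 and il17a/f1 in early- and late-labelled adult intestine, in CPM of all T and NK/ILC cells of the library; bars start at 0 and clusters are numbered within the intestine. Cluster 9 gives 33 of the 36.2 CPM of il22 in the early library and 0.492 of 1.7 CPM in the late one.

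The intestinal gap of il22 and il17a/f1, and much of that of rorc, lay in 1 cluster. Cluster 9 of the intestine was led by si:ch211-266a5.12, il26, ccl20a.3 (a chemokine gene), il22 and nitr9 (of the immune-type receptor family of fish), and it held 417 early but 16 late cells. It gave 89.8 CPM of rorc in the early library and 2.04 CPM in the late one, and 865 against 13 UMIs of il22 and 99 against 1 of il17a/f1. Because il22 is among its leading genes and nearly all its cells come from 1 library, the cluster may be that library rather than a cell type, and its il22 level is a description. Another 44 il22 UMIs of early intestine lay in cluster 22, which was led by the cell cycle genes mki67 and cdk1.

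Of the other rorc-bearing clusters of the intestine, 15 and 23 made closer contributions to the pooled level in both libraries than 28 did. Cluster 15, led by kirrel3a, nitr4a, rorc, il23r and mafb, gave 41.9 CPM of rorc in the early and 56.2 CPM in the late library. Cluster 23, led by ccr6b and hgfb, gave 43.2 and 39.0 CPM. Cluster 28, led by gypc, sox13 and gsdmea, with 73 early and 12 late cells, gave 56.6 and 10.1 CPM. Scaled to the cluster's own UMIs, the order differed. In cluster 15, with 108 early and 208 late cells, rorc was then 6570 and 1063 CPM. In cluster 23 it was 1143 and 1853 CPM, and in cluster 28 it was 4417 and 3285 CPM. In the late library cluster 15 also held 22 of the 45 il22 UMIs, so rorc and il22 were met together in both libraries but in unlike clusters.

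Cells with il22 in early intestine nearly always had rorc. A rorc UMI was present in 166 of the 183 cells with il22 (90.7%) against 12.7% of the 4886 cells without it. The same held for il23r, the interleukin 23 receptor gene, at 63.9% against 8.68%, for il17a/f3 at 49.7% against 10.0%, for il26, an epithelial-acting relative of il22, at 20.8% against 0.594%, and for il17a/f1 at 19.1% against 0.409%. Shares of TCRaC were 20.8% and 15.4%. The type 2 regulator gene gata3 was found in 2.73% against 10.1%, and the type 1 genes tbx21 and ifng1 in 0 of 183 against 1.64% and 1.19%, a difference not detectable at this number of cells. Cells with il22 were deeper, at a median of 8125 against 4343.5 UMIs, so these shares are not at matched depth, and gata3 stood lower in the deeper cells.

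**Figure D3:**
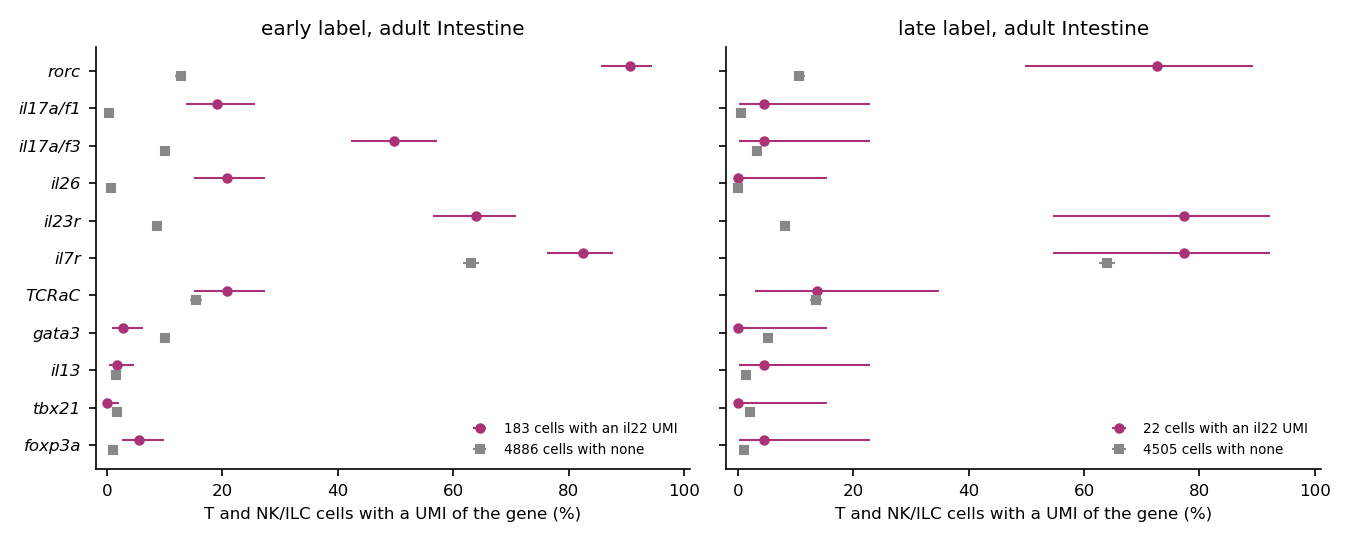
Share of T and NK/ILC cells with a UMI of each gene, in percent, for cells with il22 (circles) and without it (squares), in early- (left) and late-labelled (right) adult intestine; bars are exact 95% binomial intervals over cells of 1 library. A rorc UMI is found in 90.7% of the 183 early cells with il22 and in 12.7% of the 4886 without it.

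The relation ran unevenly in the other direction. Of the 788 rorc-positive cells of early intestine, 21.1% had il22, while 57.4% had il23r against 2.08% of rorc-negative cells. Of the 55 il17a/f1-positive cells, 51 had rorc and 35 had il22. In late intestine 16 of 22 il22-positive cells had rorc and 17 had il23r, but 1 had il17a/f1. There, 10 of 22 il17a/f1-positive cells had rorc and 6 had gata3. In early thymus all 11 il22-positive cells had rorc, and in late thymus 10 of 11 il17a/f1-positive cells had rorc, 7 had gata3 and 0 had il22.

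In thymus, il22 lay mostly in 1 cluster and rorc in several. Thymus cluster 3, led by ccl20a.3 and nitr9, as intestinal cluster 9 was in part, and by ccr6a, held 30 of 32 early and 2 of 2 late il22 UMIs. Thymus cluster 26, led by ccr6b, il17a/f3, il4 and il17a/f2, held 97 early and 144 late rorc UMIs, and 4 early and 14 late il17a/f1 UMIs. A cluster rich in rag1 held 75 rorc UMIs of the early and 0 of the late library. In TLN, cluster 5 gave 311 early and 72 late rorc UMIs and cluster 8 gave 59 and 103.

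The near relatives did not all follow the members. The gene il17a/f3, another of the interleukin 17A and 17F group, gave 3770 UMIs (145 CPM) in early and 583 UMIs (22.1 CPM) in late intestine, and was higher in intestine by 4.49 ± 1.02 (log2; edgeR adjusted p = 0.00871). It also gave 93 UMIs (45.0 CPM) in early TLN and 0 in late TLN. In contrast, il17a/f2 was not met in intestine and gave 17 and 26 UMIs in early and late thymus. For il26, early intestine had 854 UMIs in 67 cells, 174 of them in 1 cell, and late intestine had 0. Its early CPM was 289 times a late floor of 3 counts, with the counting error of the early value left out. Of the 2 features with related symbols, rorcb was lower in intestine (-1.21 ± 0.35, log2; edgeR adjusted p = 0.0243) and rorca did not pass (-0.21; adjusted p = 0.656).

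Over 417 cluster-by-library units, log levels of rorca and rorcb had Pearson r of -0.0073 and -0.0468 with rorc. By the same measure over 22731 genes, those most like rorc were il23r (0.803), tradv14.0 (0.793), ccl20a.3 (0.768), tradv15.0 (0.766) and mafb (0.757). The genes most like il22 were il26 (0.714), nitr9 (0.637), si:ch211-266a5.12 (0.601), FO704721.1 (0.591) and il23r (0.589). For il17a/f1 they were si:ch211-266a5.12 (0.627), nitr9 (0.598), ccl20a.3 (0.586), CR407590.2 (0.584) and nitr4a (0.583). Among the members r was 0.561 for rorc with il22, 0.504 for rorc with il17a/f1 and 0.502 for il22 with il17a/f1. Units of 1 library share its depth, so these values describe likeness and carry no test.

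Other genes of the type 3 programme were read from a list of 86 symbols, of which 75 had a feature and 59, members included, were tested in T and NK/ILC cells of adult tissues. In intestine 20 were higher, 14 were lower and 25 were not called, with a median difference of 0.15 (log2) against 0.08 over all genes tested, of which 18.7% were higher and 17.9% lower. Of 7 type 3 cytokine genes tested 4 were higher, among them lta, which encodes lymphotoxin (2.84 ± 0.31, log2; edgeR adjusted p = 0.000284), and none was lower. Of 14 receptor genes of type 3 cells 8 were higher and 3 lower. The higher ones included il23r (1.69 ± 0.45; adjusted p = 0.0183), il7r, a survival receptor of lymphocytes (1.37 ± 0.23; adjusted p = 0.00226), il21r.1 (1.57 ± 0.25; adjusted p = 0.00155) the integrin gene itgae.2 (1.61 ± 0.19; adjusted p = 0.00042) and il6st, a shared receptor chain (0.68 ± 0.18; adjusted p = 0.0155). The homing receptor gene ccr9a was lower (-1.05 ± 0.27; adjusted p = 0.0146).

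Of 15 transcription factor genes tested 4 were higher and 1 lower. Besides rorc these included irf4a (3.31 ± 0.26, log2; edgeR adjusted p = 5.52e-05), tox2 (1.74 ± 0.19; adjusted p = 0.000258) and roraa, a relative of rorc (1.68 ± 0.19; adjusted p = 0.000327). Of 7 upstream genes 2 were higher and 3 lower, and of 7 genes of the interleukin 17 and 22 receptors and their signalling 1 was higher and 2 lower. The 1 higher of the latter was the adaptor gene traf3ip2l (2.17 ± 0.26; adjusted p = 0.000409). Over all genes 18.7% were higher and 17.9% lower. With 7 to 15 genes in each of these 3 roles, a departure from those shares was not tested. The receptor il23r reached 65.2 and 36.9 CPM in intestine but 119 CPM in early TLN, so its groups overlapped.

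Type 1 and regulatory genes stood lower in intestine, with 1 exception. Against 17.9% of all genes lower and 18.7% higher, of 4 type 1 genes 3 were lower and 1 higher, both regulatory genes tested were lower, and none of 3 type 2 genes was called. Chosen after their values were seen, the type 1 regulator gene tbx21 differed by -3.49 ± 0.25 (log2; edgeR adjusted p = 3.42e-05), the interferon gamma gene ifng1 by -3.06 ± 0.41 and foxp3a, the regulatory T-cell factor gene, by -3.58 ± 0.44 (adjusted p = 0.000459). The level of foxp3a was 7.24 and 5.26 CPM in intestine and 35.8 to 151 CPM in the other tissues. The listed genes tbx21, eomesa, foxp3a, il7r, ccr9a, il13 and id2a were also markers that named the T and NK/ILC clusters. They thus helped to define the cells in which they are compared here and in the other comparisons. For the label across tissues, 0 of 55 listed genes tested were called in T and NK/ILC cells and 0 of 66 over all cells. Of all genes 0.419% and 0.0595% were called there, so counts of 0 do not set the list apart.

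**Figure D4:**
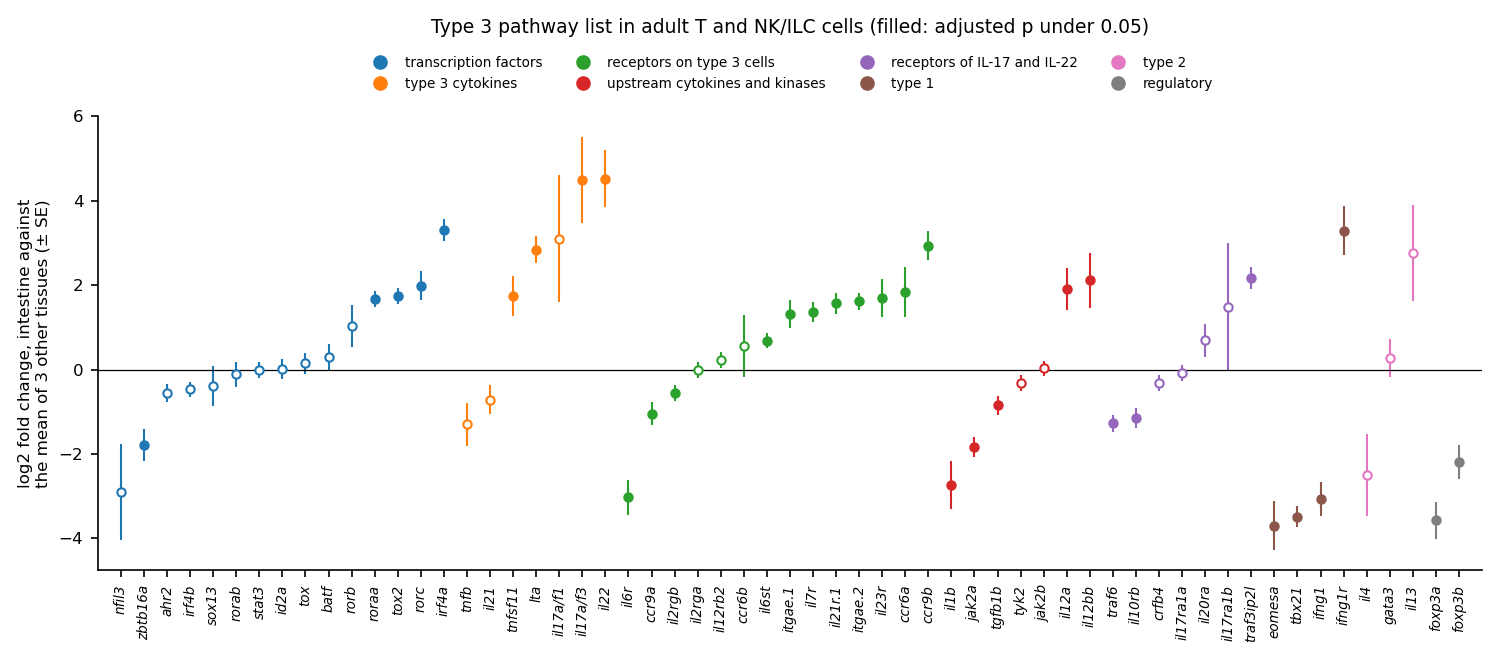
Fitted log2 difference between intestine and the other 3 adult tissues in T and NK/ILC cells for the listed genes that were tested, coloured by role, with bars of 1 SE and filled points where the edgeR adjusted p was under 0.05. The type 3 cytokine genes il22 (4.53) and il17a/f3 (4.49) stand highest, and foxp3a (-3.58) and tbx21 (-3.49) are near the bottom.

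In larvae, the question is when cells of each label take up these genes. The rorc level over all labelled cells of larvae stood higher at each later age, except from the first to the second sampling of the late label. Over all cells rorc was 1.38, 18.1 and 37.0 CPM at 2, 6 and 10 dpf with the early label, 3.03, 7.14 and 13.7 CPM at 3, 6 and 10 dpf with the mid label, and 3.49, 1.01 and 5.0 CPM at 4, 6 and 10 dpf with the late label. Fewer cells of a type and less RNA per cell cannot be told apart in such sums. At the first sampling, T and NK/ILC cells held 0 of 21 (early), 2 of 25 (mid) and 21 of 69 (late) rorc UMIs. The ages thus compare unlike cells. The early label was higher than the late label by 3.50 ± 0.39 (log2; edgeR adjusted p = 0.0451), among 0.69% of genes called (0.35% higher and 0.34% lower). The call was lost without the early 6 dpf library (3.30; adjusted p = 0.161) or the early 10 dpf library (3.77; adjusted p = 0.115).

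Within T and NK/ILC cells the gap was narrower. The level of rorc was 81.1 CPM (73.5 to 89.1) with the early, 95.1 CPM with the mid and 22.1 CPM (12.1 to 37.1; 14 UMIs in 6 of 90 cells) with the late label at 6 dpf. At 10 dpf it was 177, 137 and 113 CPM. The ratio of early to late was 3.67 (2.16 to 6.77) at 6 dpf and 1.56 (1.29 to 1.89) at 10 dpf, against 18 (12.7 to 26.3) and 7.41 (6.20 to 8.91) over all cells. T and NK/ILC cells were 20.6% and 16.3% of early-labelled cells at 6 and 10 dpf and 1.98% and 4.92% of late-labelled ones. The fitted difference of 0.92 ± 0.39 (log2) did not pass (edgeR adjusted p = 0.372), among 1.29% of genes called (0.326% higher and 0.968% lower).

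In larvae il17a/f1 was met with the early and mid labels, and il22 with the late label too, at 7, 2 and 4 UMIs over all cells at 4, 6 and 10 dpf. In T and NK/ILC cells il22 gave 10 and 38 UMIs with the early label at 6 and 10 dpf, 2 and 21 with the mid label and 0 and 0 with the late label, which had 1 at 4 dpf. For il17a/f1 these were 43 and 69 UMIs, 0 and 29, and 0 and 0, and 36 of the 43 came from 1 cell. Late T and NK/ILC cells numbered 90 and 173 at 6 and 10 dpf. The early CPM of il22 at 10 dpf was 1.49 times a late floor of 3 counts. For il17a/f1 it was 1.73 and 2.71 times that floor at 6 and 10 dpf. These ratios leave out the counting error of the early value. For il22 at 10 dpf the intervals overlapped, at 2.99 to 5.79 CPM early and 0 to 3.48 CPM late. The early il17a/f1 UMIs at 6 dpf lay in 5 cells, so 90 late cells are too few to read the 0 there. Over all cells neither il22 nor il17a/f1 was called by edgeR, at 2.80 ± 0.82 (log2, adjusted p = 0.139) and 8.87 ± 2.28 (adjusted p = 0.128). In early larvae at 10 dpf 19 of 23 il22-positive cells had rorc, and of 31 il17a/f1-positive cells 21 had rorc and 2 had il22.

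The rorc clusters of larvae differed in their share between labels. Larval cluster 11, led by ccl20a.3, nitr6b and rorc, held 529 early but 30 late cells at 10 dpf. It gave 84.8 CPM of rorc with the early and 29.2 CPM with the late label, and 30 against 0 il22 UMIs. Scaled to the cluster's own UMIs, rorc was closer, at 163 and 139 CPM, and 30 late cells are too few to read the 0 of il22. The NK/ILC-like cluster 12, with il12bb and lta, gave 61.7 and 64.1 CPM at that age, from 318 early and 79 late cells. Scaled to its own UMIs, its rorc was 255 and 150 CPM. At 6 dpf cluster makeup differed as well. Cluster 14 held 271 early and 7 late cells and gave 46.4 and 1.58 CPM of rorc. Clusters 12 and 35 gave 8.75 against 3.16 and 14.7 against 0 CPM. Cluster 11, with 78 early and 8 late cells, went the other way, at 11.2 and 17.4 CPM (89.5 and 176 CPM of its own UMIs). The part of makeup in the 6 dpf ratio was not tested. Of the listed genes over all cells, 6 of 65 were higher with the early label and none lower, where 0.35% and 0.34% of all genes were. Beside rorc they were il23r (3.70 ± 0.42, log2, by edgeR), il12rb2 (2.34), il7r (2.83), il20ra (3.25) and foxp3a (5.0 ± 0.49), named since they are few, after their values were seen. In T and NK/ILC cells 2 of 56 were higher, il20ra and foxp3a, and 2 lower, sox13 and il4, where 0.326% and 0.968% of all genes were. The share of such cells was larger with the early label, and its part in the calls over all cells was not tested.

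The crispant libraries ask what loss of rag1, and stimulation through Toll-like receptors, do to these cells. The targeted gene was read first: rag1 gave 825 UMIs (7.58 CPM over all cells) in untreated and 601 (4.33 CPM) in R848-treated slc24a5 crispants, and 225 (3.06 CPM) and 191 (1.81 CPM) in rag1 crispants. It was lower but present in both rag1 libraries; a cut gene can still be transcribed, so this checks the labels in part. T and NK/ILC cells were 10.4% of untreated and 17.5% of treated slc24a5 cells, and 9.12% and 12.2% of rag1 cells.

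**Figure D5:**
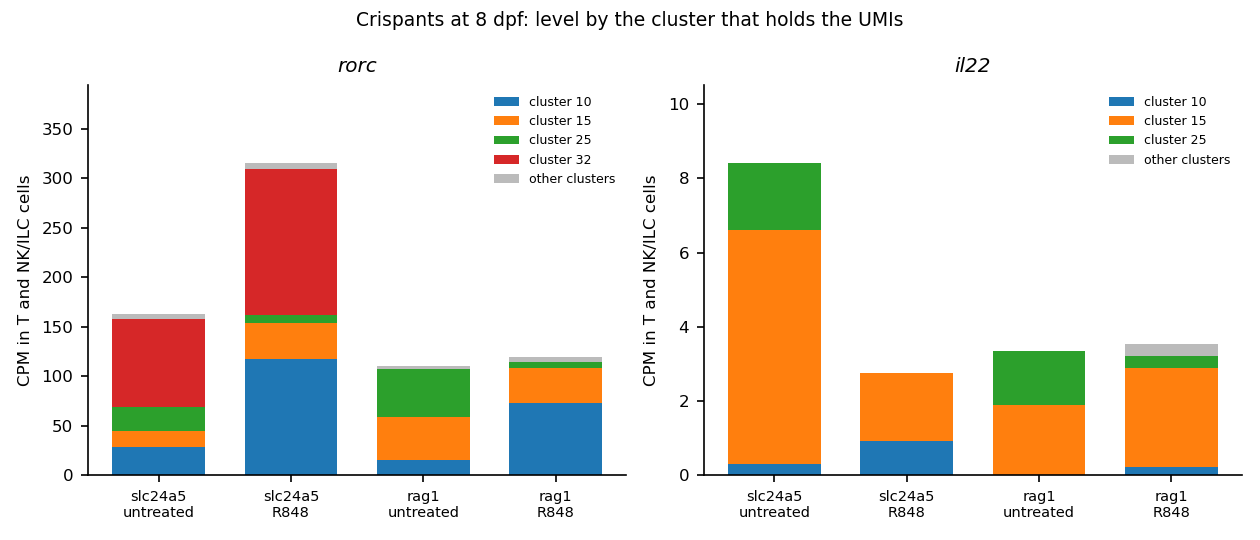
Contribution of each crispant cluster of T and NK/ILC cells to the level of rorc and il22 in the 4 crispant libraries, in CPM of all T and NK/ILC cells of the library; bars start at 0. Cluster 32, rich in rag1, gives 88.4 and 147 CPM of rorc in the slc24a5 libraries and 0.145 and 0.321 CPM in the rag1 libraries.

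Taken as 1 pool, T and NK/ILC cells of rag1 crispants carried less rorc than those of slc24a5 crispants, and the cluster makeup of the pools differed. In T and NK/ILC cells rorc was 163 CPM (155 to 171) in untreated and 316 CPM (307 to 325) in treated slc24a5 crispants, and 110 CPM (102 to 118) and 119 CPM (112 to 126) in rag1 crispants. Both rag1 libraries lay below both slc24a5 libraries. The fitted difference was -0.99 ± 0.18 (log2; edgeR adjusted p = 0.0209), among 2.4% of genes called, and -1.07 ± 0.19 (adjusted p = 0.0385) over all cells, among 0.809%. Over all cells the call was lost with DESeq2 size factors (adjusted p = 0.0601), no scaling (0.167), the strict cell filter (0.199) or every barcode (0.0945).

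The untreated difference lay in 1 cluster of rag1-rich cells, and the treated one in part. Cluster 32, led by rag1, cd4-1, lck and rorc, held 165 and 233 cells of the slc24a5 libraries and 8 and 9 of the rag1 libraries. Leaving it out, an alternative chosen after seeing the data, gave rorc at 77.9 and 174 CPM in untreated and treated slc24a5 crispants and 111 and 119 CPM in rag1 crispants. The untreated ratio of rag1 to slc24a5 then turned from 0.676 (0.620 to 0.738) to 1.42 (1.29 to 1.58), while the treated ratio went from 0.377 (0.353 to 0.403) to 0.686 (0.638 to 0.737). The fitted difference was -0.049 ± 0.17 (edgeR adjusted p = 0.972). Since the cluster was picked by rag1, the targeted gene, and rorc is among its leading genes, a smaller gap without it was largely set by that choice, and these values are a description. Of rorc-positive cells, 84 of 344 (24.4%) in untreated slc24a5 crispants had a rag1 UMI, against 1 of 194 in rag1 crispants.

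For il22 no difference between genotypes was called, and il17a/f1 was below the filter on low counts in T and NK/ILC cells. In T and NK/ILC cells il22 was 8.43 CPM (6.72 to 10.4; 84 UMIs, 28 of them in 1 cell) in untreated slc24a5 crispants and 3.33 CPM (23 UMIs) where rag1 was targeted. The treated libraries had 2.76 CPM (1.96 to 3.77; 39 UMIs) and 3.53 CPM (33 UMIs). The fitted difference of il22 was -0.51 ± 0.40 (log2; edgeR adjusted p = 0.714). For il17a/f1 there were 9 UMIs in untreated and 3 in treated slc24a5 crispants, and 54 and 2 in rag1 crispants, where 49 of the 54 lay in 1 cell. Without the filter this made a called difference of 2.48 ± 0.56 (adjusted p = 0.000678). Of 62 listed genes tested, where 0.583% of all genes were higher and 1.81% lower, 1 was higher in rag1 crispants, eomesa (1.19), and 4 were lower, rorc, batf (-0.78), ccr9b (-1.02) and foxp3b (-6.86), named since they are few, after their values were seen.

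With R848, rorc stood higher in slc24a5 crispants and about level in rag1 crispants. The ratio of treated to untreated CPM in T and NK/ILC cells was 1.94 (1.83 to 2.06) in the former and 1.08 (0.986 to 1.19) in the latter. Over both genotypes the difference was 0.39 ± 0.18 (log2) and did not pass (edgeR adjusted p = 0.174), among 17.5% of genes called. Without the rag1-rich cluster it was 0.47 ± 0.17 (adjusted p = 0.0319). Over all cells rorc was higher by 0.69 ± 0.19 (adjusted p = 0.0154), among 46.7% of genes called, with levels of 16.3 and 34.8 CPM in slc24a5 and 11.2 and 12.3 CPM in rag1 crispants. A difference between the genotypes in their response could not be tested with 1 library each.

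The gap in slc24a5 crispants lay in cluster 10 as well as cluster 32. As a contribution to the pooled level, cluster 10 gave 28.4 CPM untreated and 117 CPM treated in slc24a5 crispants, and 15.1 and 72.3 CPM in rag1 crispants. It held 222 untreated and 736 treated cells in slc24a5 crispants, and 33 and 217 in rag1 crispants. Cluster 25, led by nitr5, il7r and il23r, went the other way, from 24.1 to 7.86 CPM and from 49.0 to 5.24 CPM. In rag1 crispants these moves nearly offset each other. Scaled to the cluster's own UMIs, rorc in cluster 10 went from 670 to 1057 CPM in slc24a5 and from 1527 to 1812 CPM in rag1 crispants. In cluster 25 it went from 159 to 77.4 CPM and from 203 to 51.7 CPM. In cluster 32 of slc24a5 crispants it went from 1929 to 4538 CPM. Treated cells were shallower, with median depths of 3000 (treated) and 6883.5 UMIs (untreated) in slc24a5 crispants and 4761 and 8821 in rag1 crispants. The share of cells with rorc went from 24.6% to 28.8% and from 26.5% to 18%, and after thinning to 1000 UMIs from 12.2% to 18.7% and from 8.44% to 10.7%. Erythroid cells had rorc in at most 0.818% of cells, at a median depth of 3329 UMIs.

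Neither cytokine gene was called higher with R848. The level of il22 in treated over untreated T and NK/ILC cells was 0.328 (0.218 to 0.485) in slc24a5 and 1.06 (0.603 to 1.89) in rag1 crispants, and the fitted difference of -1.06 ± 0.39 (log2) did not pass (edgeR adjusted p = 0.0921). It passed at -1.13 (adjusted p = 0.0473) without the cell richest in il22 of each library and at -1.09 ± 0.33 (adjusted p = 0.0111) without the rag1-rich cluster. Over all cells il22 differed by -0.86 ± 0.35 (adjusted p = 0.0670). The gene il17a/f1 was lower over all cells by -3.76 ± 0.63 (adjusted p = 0.00112), on 17 and 54 UMIs untreated and 4 and 2 treated. Of the 54 UMIs, 49 lay in 1 cell, and without the richest cell of each library il17a/f1 fell below the filter on low counts. It met that filter only through the untreated libraries, at 0.156 and 0.735 CPM over all cells against 0.0288 and 0.0190 CPM treated. The call is therefore no support for an effect of R848.

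Among 62 listed genes, 11 were higher and 12 lower in T and NK/ILC cells with R848, where 11% and 6.56% of all genes were. Chosen after their values were seen, ifng1 (2.49 ± 0.24, log2; edgeR adjusted p = 0.000131) and tbx21 (1.13 ± 0.19) of the type 1 programme rose. The type 3 receptor genes il23r (-1.40 ± 0.24; adjusted p = 0.00336) and ccr6a (-1.77 ± 0.26) fell. The type 3 roles did not all go 1 way. Of 15 receptor genes of type 3 cells 1 was higher and 5 lower, and of 6 type 3 cytokine genes 1 and 1. Of 17 transcription factor genes 4 were higher and 1 lower, and all 4 type 1 genes were higher. The level of il23r was 62.6 and 106 CPM untreated and 40.4 and 28.7 CPM treated in slc24a5 and rag1 crispants, with both treated libraries below both untreated ones. Accordingly 117 of 194 rorc-positive cells had il23r in untreated and 71 of 257 in treated rag1 crispants, at the unlike depths given above.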

How the data were processed

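The deposited matrices hold raw UMI counts per gene and barcode, not normalized, made per the file headers with Cell Ranger 7.1.0 (early and mid larval libraries), 7.0.1 (late larval), 8.0.1 (crispant) and 9.0.0 (adult). The submitters' processing notes name the build GRCz11. Groups were taken from the labels. The members and gene lists were chosen with earlier results of these data known, and the thresholds that name clusters, and the rag1-rich clusters (at least 0.5 rag1 UMIs per cell), were set after seeing the data.

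Cells with at least 500 UMIs, 200 genes and at most 20% mitochondrial UMIs were kept, and the highest doublet scores left out (14528 cells, at 0.8% or 0.4% per 1000 barcodes for kits 3.1 and 4). Larvae, crispants and each adult tissue were clustered apart (Leiden, resolution 1, igraph 0.11.9) and named from marker lists, so that class sizes may differ from the study's own. Pairs of libraries shared at most 0.977% of the smaller one's barcodes, and 2 shared barcodes had rorc in both.

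UMIs were summed per library and tested with edgeR 4.0.16 (filterByExpr, TMM, quasi-likelihood; R 4.3.3), with terms for tissue and label, age and label, or genotype and R848, Benjamini-Hochberg adjustment over all genes and a threshold of 0.05. Residual degrees of freedom were 3, 2 and 1. The fits were tested on simulated data. DESeq2 1.42.0, other scaling, other filters, thinning and leaving out libraries, top cells or rag1-rich clusters were the alternatives. A level of 0 was read against a floor of 3 counts. Intervals are exact Poisson or Clopper-Pearson at 95%.

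The text names the members, their relatives il17a/f2, il17a/f3 and il26 with rorca and rorcb, at most 12 listed genes of intestine (those that passed first, then by UMIs) and the 5 genes most like each member (log2 of CPM + 5, clusters of at least 50 cells). Others are named as chosen after their values were seen. Python 3.11.15 was used with numpy 2.4.6, scipy 1.17.1, pandas 2.3.3, scikit-learn 1.9.0 and matplotlib 3.10.9.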

Additional observations from a re-analysis of the deposited data

Results flagged for a closer look

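The ratio of early to late label in T and NK/ILC cells went in opposite directions between adult tissues for rorc and il17a/f1. For rorc it was 1.9 in intestine and 1.86 in TLN but 0.614 in thymus. For il17a/f1 it was 4.13 in intestine and 0.210 in thymus. Each of these is a ratio of 1 library to 1 library, and the difference between tissues was not tested.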

How the results depend on the processing

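No paired analysis was possible because every group held 1 library and so no replicate numbers pair libraries; tissue, age or genotype was a term of each fit. Leaving out a library could not be fitted for the crispants, which have no residual degrees of freedom without it. With 1 library per group, no result rests on replicate animals, and il22 and il17a/f1 are limited by few UMIs.

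For members that passed the filter, calls gained or lost without leaving out a library were these (log2 difference, edgeR adjusted p unless named). Without a filter on low counts il17a/f1 passed in intestinal T and NK/ILC cells (3.19; 0.000732) and in larval ones (8.08; 0.000795), and il22 with R848 (-1.07; 0.00561). By DESeq2's Wald test il22 was lost in intestinal T and NK/ILC cells (3.65; 0.105) and gained for adult label over all cells (2.94; 0.0327). With no scaling of library totals, R848 gave rorc 0.62 (0.0572) and il22 -0.92 (0.0495) over all cells and rorc 0.55 (0.0454) in T and NK/ILC cells. Without rag1-rich clusters R848 gave rorc 0.47 (0.0319) and il22 -1.09 (0.0111), and rag1 targeting gave rorc -0.049 (0.972). Without the cell richest in il22, R848 gave il22 -1.13 (0.0473). The rag1 difference of rorc over all cells was lost with DESeq2 size factors (-1.07; 0.0601), no scaling (-1.02; 0.167), the strict cell filter (-0.88; 0.199) and every barcode (-1.04; 0.0945). Where no setting shows it, the cause was not tested.

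For members below the filter, leaving it off called il17a/f1 in T and NK/ILC cells with R848 (-4.01; 1.45e-09) and for rag1 (2.48; 0.000678), and il22 for adult label (4.30; 3.64e-14). With the filter, il22 was also called for adult label without early (4.65; 0.00602) or late kidney marrow (4.62; 0.00703). There it met the filter through early-labelled libraries only, so these calls are no support for a label difference. Adjusted p values of edgeR fits without the filter are not comparable with those of filtered fits, since genes of low counts share in their spread.

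Leaving out each library gave, for intestine, 1.21 to 2.65 (rorc), 2.08 to 6.51 (il22) and 0.98 to 5.2 (il17a/f1) in T and NK/ILC cells and 3.21 to 4.44, 1.77 to 5.25 and 2.77 to 5.99 over all cells. For adult label it gave rorc 0.03 to 0.94 in T and NK/ILC cells and rorc -0.11 to 0.54, il22 0.98 to 4.29 and il17a/f1 -1.11 to 2.1 over all cells. There, rorc was -0.11 without early or late intestine, -0.10 without early TLN and -0.083 without late TLN, and il17a/f1 was -1.07 without early and -1.11 without late intestine. For larval label it gave rorc 0.37 to 1.95 and il17a/f1 6.71 to 13.83 in T and NK/ILC cells, and rorc 3.01 to 4.11, il22 2.20 to 3.72 and il17a/f1 7.43 to 14.08 over all cells. Larval il17a/f1 was 8.64 over all cells and 7.82 in T and NK/ILC cells without the mid 6 dpf library, and 8.67 and 7.83 without the mid 10 dpf library. The late libraries at 6 and 10 dpf had 0 il17a/f1 UMIs, so the gene met the filter without them and its size is not well set. Of the 43 early UMIs at 6 dpf, 36 lay in 1 cell.

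Counts of genes called for adult label were 10 over all cells against 56 with no scaling, 52 with no filter, 589 by DESeq2 and 5 under the strict filter, and 46 in T and NK/ILC cells against 575 with no filter and 191 by DESeq2. For larval label they were 132 over all cells against 328, 597, 1603 and 274, and 111 in T and NK/ILC cells against 485 and 181. For R848 in T and NK/ILC cells 2437 compare with 808 by DESeq2. For rag1 they were 186 over all cells against 114 with every barcode, and 333 in T and NK/ILC cells against 885 with no filter, 124 by DESeq2 and 540 without rag1-rich clusters. With no scaling, genes of intestine over all cells split 6587 higher and 1299 lower against 4333 and 3315, and the median of all genes moved from 0.06 to 0.60 (log2). Under it R848 in T and NK/ILC cells split 2325 and 438 against 1526 and 911 (median 0.17 against 0.01), larval label over all cells 124 and 204 against 67 and 65, and adult label 21 and 35 against 6 and 4 over all cells (median -0.22 against -0.02) and 19 and 44 against 24 and 22 in T and NK/ILC cells (median -0.20). The larval median in T and NK/ILC cells moved from 0.05 to 0.17. DESeq2's Wald test split intestinal T and NK/ILC cells 1807 and 2427 against 2374 and 2268, and no filter split them 3638 and 2137.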
